A study of Penaeus monodon with 38 samples.

Results

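The hyperglycemic hormone family of sinus gland peptides was followed in Penaeus monodon, the black tiger shrimp, on 38 arrays hybridised with 1 dye. Members were the probes whose description names hyperglycemic hormone, CHH or PmSGP-I to PmSGP-V. Probes for Pem-SGP-C1, Pem-SGP-C2 and the moult-, mandibular organ- and vitellogenesis-inhibiting hormones were left out. The rule found 35 of the 2240 probes on each array, 5 for each of 7 targets among 921: hyperglycemic hormone homolog PmSGP-IV, hyperglycemic hormone CHH2, CHH1, PmSGP-I, PmSGP-II, PmSGP-III and PmSGP-V. A probe is named here by its target and by the first and last base it covers in the target sequence.

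The series set captive-reared beside wild-caught adult females as the ovary matured after removal of 1 eyestalk, an operation that induces ovarian maturation. Captive eyestalk and captive ovary had 4 arrays each: before ablation, after ablation and still previtellogenic, vitellogenic, and with elongated cortical rods in the oocytes. Wild eyestalk and wild ovary had 12 arrays each, 2 at every one of 6 stages: before ablation, 2 h and 24 h after it, vitellogenic, with round cortical rods and with elongated cortical rods. Wild cephalothorax, the fused head and thorax with the digestive gland, muscle and nerve cord, had 1 array at each of those 6 stages. Preablation animals kept both eyestalks, so the eyestalk arrays of every later stage hold the eyestalk that remained or the one removed, which the labels do not say. Stages before yolk deposition are called previtellogenic and the last 3 wild and last 2 captive stages vitellogenic. Ages were not given. Each captive array carried a pool of 3 females, and each wild ovary or eyestalk array a pool of 4 or 5 of 9 females. Pooling of the cephalothorax samples was not stated separately. With pools, a p-value measures no spread between animals. It measures the spread between arrays of a group, which holds stages as well as pools wherever a group joins stages. Each captive and each cephalothorax array was a stage of its own, without a second array. Every slide held 1 tissue of 1 origin, so tissue or origin and slide cannot be told apart.

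In decapod crustaceans, hormones of this family are made by neurosecretory cells of the X-organ in the eyestalk and are stored and released by the sinus gland beside it. The hyperglycemic hormone raises the sugar level of the haemolymph, and related peptides of the same superfamily restrain moulting, the mandibular organ and the gonad. Removing an eyestalk removes part of that source, which is why hatcheries ablate females to start ovarian maturation.

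The targets are related in sequence, so some signal can be shared between them. The 6 probes shown are 5 with a near but not identical partner on another target, so that the differing bases can be seen, and PmSGP-IV 313-346 without such a partner. They are written 5′ to 3′ as the array files give them, and capitals mark the bases that differ between partners.
PmSGP-II 312-345: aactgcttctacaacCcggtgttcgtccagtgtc
CHH2 112-145: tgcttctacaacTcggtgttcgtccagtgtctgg
PmSGP-V 272-305: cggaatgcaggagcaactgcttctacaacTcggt
PmSGP-IV 313-346: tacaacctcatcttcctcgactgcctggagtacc
PmSGP-II 176-209: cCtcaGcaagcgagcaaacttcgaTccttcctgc
PmSGP-III 160-193: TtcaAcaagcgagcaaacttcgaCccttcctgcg
CHH2 112-145 and PmSGP-II 312-345 matched at 30 of 31 aligned bases, and the difference was T13C, counted from 1 at the 5′ end of the CHH2 probe with the CHH2 base first. PmSGP-V 272-305 matched PmSGP-II 312-345 at 19 of 20 overlapping bases and differed by C16T, counted along the PmSGP-II probe with its base first. It also shared a run of 17 bases with CHH2 112-145. PmSGP-II 176-209 and PmSGP-III 160-193 matched at 30 of 33 bases, with C2T, G6A and T25C counted along the PmSGP-II probe. PmSGP-II 498-532 and PmSGP-III 484-519 were identical over 32 bases, so these 2 probes cannot tell their targets apart. The longest run that PmSGP-IV 313-346 shared with a probe of another member target was 7 bases. Of 525 pairs of member probes from different targets, 5 shared a run of 12 or more bases. Within a target, PmSGP-V 427-461 overlapped 446-480, PmSGP-II 25-59 overlapped 43-77, PmSGP-III 53-87 overlapped 80-114 and CHH2 207-241 met 241-275 at 1 base, so those 4 pairs are not independent readings.

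Probe levels are log2 of the normalised mean spot intensity, and levels of different probes are not comparable with each other. The deposited median intensity of an array ran from 72.3 to 384, and the brightest member spot read 7172 on the linear scale. A probe was counted as above the non-specific level where it exceeded the 90th percentile of 24 probes designed from vertebrate sequences on the same array. That level was higher in eyestalk, at 7.68 to 8.99, than in ovary, at 7.33 to 8.15, and fewer of all probes passed it in eyestalk (22.1% to 39%) than in ovary (30.7% to 48.8%). Arrestin, opsin and pigment dispersing hormone probes, the markers of eyestalk, were higher in wild eyestalk than in wild ovary for 12 of 24 probes and lower for 1. Yolk precursor, peritrophin and thrombospondin probes, the markers of ovary, were lower in wild eyestalk for 15 of 17 probes and higher for 0, by limma at an adjusted p under 0.05. Of all probes, 37% were called higher and 28.6% lower.

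The family's signal was highest in the eyestalk. In wild eyestalk, 15 of the 35 probes stood above the non-specific level on at least 6 of the 12 arrays: PmSGP-III had 4 of its 5 probes among them, PmSGP-II had 3, PmSGP-I, PmSGP-IV and CHH1 had 2 each, and PmSGP-V and CHH2 had 1 each. The number of member probes above the level was 6 to 11 on captive eyestalk arrays and 10 to 25 on wild eyestalk arrays, against 5 to 12 on captive ovary, 1 to 14 on wild ovary and 8 to 12 on wild cephalothorax. On no array at all did 7 probes pass it: CHH1 330-363 and 801-835, CHH2 241-275 and 370-404, PmSGP-II 176-209, PmSGP-IV 33-67 and PmSGP-V 427-461. The 15 probes had a median GC content of 51.4%, against 45.7% for the other 20, with ranges of 36.1% to 54.3% and 37.1% to 55.9% that overlapped. The part of base composition in detection was not tested.

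Between wild eyestalk and wild ovary, 28 of the 35 member probes were higher in eyestalk and 2 were lower (limma, adjusted p under 0.05), where 37% of all probes were called higher and 28.6% lower. The median difference was 0.94 log2 units over the members, against 0.06 over all probes. The 24 vertebrate-derived probes, which set the non-specific level, had 9 higher and 3 lower, with a median difference of 0.14. In 14 member probes every wild eyestalk array lay above every wild ovary array, a count that was not made over all probes. The differences of the 28 ran from 0.35 to 3.27. All 5 probes were higher for PmSGP-I, PmSGP-II and PmSGP-III, as were 4 each for PmSGP-IV and CHH1, 3 for PmSGP-V and 2 for CHH2. In bulk tissue, more cells of a type and more RNA per cell cannot be told apart.

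**Figure D1:**
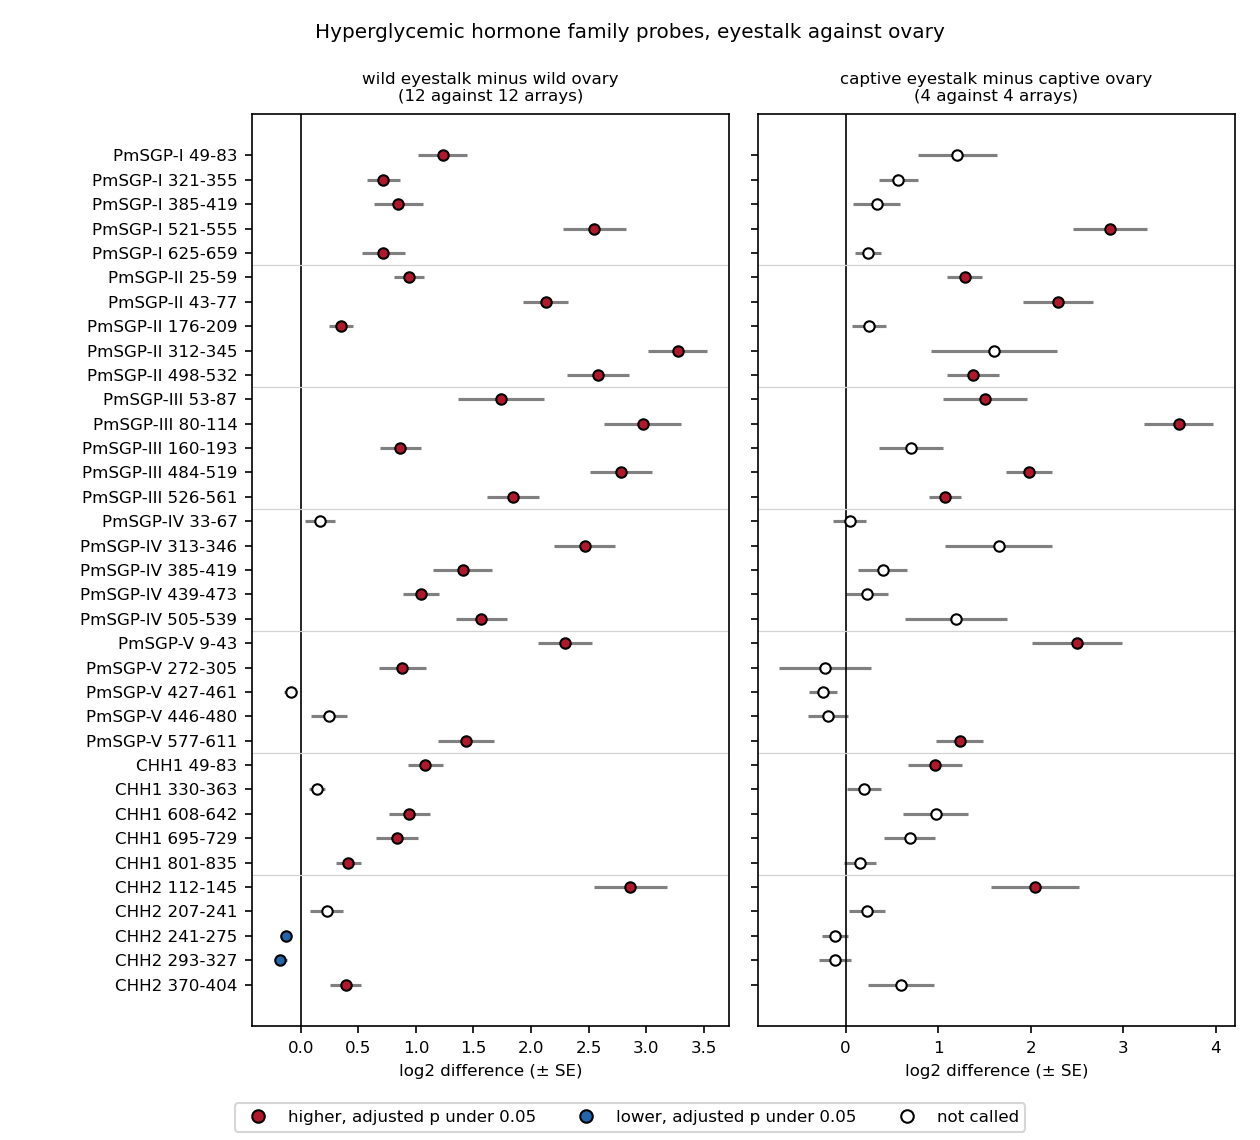
Difference in log2 level (± SE) between eyestalk and ovary for every member probe, in 1 panel for wild and 1 for captive females, filled where called. Wild eyestalk was higher for 28 of 35 probes, and captive eyestalk for 12 of those 28.

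PmSGP-II, a hyperglycemic hormone family peptide of this species, gave the widest gap, at probe 312-345. It had a level of 9.77 at the lowest, 11.00 at the median and 13.47 at the highest in wild eyestalk, against 7.57, 7.83 and 8.35 in wild ovary and 7.81, 8.25 and 8.99 in wild cephalothorax. Every wild eyestalk array lay above every array of the other wild tissues. The mean was 11.10 ± 0.96 in wild eyestalk and 7.82 ± 0.23 in wild ovary (SD, n = 12 each), a difference of 3.27 ± 0.26 (SE, limma adjusted p = 1.74e-12).

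PmSGP-III was read best by probe 80-114. Its levels were 8.63, 10.49 and 13.35 in wild eyestalk (lowest, median, highest), against 7.04, 7.64 and 8.48 in wild ovary. The groups did not overlap, and the difference was 2.97 ± 0.33 (SE, limma adjusted p = 3.84e-09). In cephalothorax the same probe ran from 8.20 to 9.50, with a median of 8.61, so its wild eyestalk and cephalothorax ranges overlapped.

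Hyperglycemic hormone CHH2 was read by probe 112-145, the near match of PmSGP-II 312-345. Its levels were 8.20, 10.19 and 12.26 in wild eyestalk and 6.51, 7.15 and 7.76 in wild ovary, a difference of 2.86 ± 0.31 (SE, limma adjusted p = 2.51e-09). The ranges did not overlap. No other probe of CHH2 passed the non-specific level in eyestalk: 370-404 was called higher, 241-275 and 293-327 were called lower by 0.12 and 0.18, and 207-241 was not called. The CHH2 result therefore rests on the 1 probe that has a near-identical copy on PmSGP-II.

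Hyperglycemic hormone homolog PmSGP-IV, at the probe with no close partner, 313-346, had levels of 9.39, 9.99 and 12.88 in wild eyestalk (lowest, median, highest), against 7.25, 7.71 and 8.57 in wild ovary. Its difference was 2.46 ± 0.27 (SE, limma adjusted p = 1.6e-09), and no array of one tissue fell in the range of the other. Its probe 505-539 averaged 9.37 in wild eyestalk and 7.80 in wild ovary, and probe 33-67 was not called.

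PmSGP-V disagreed between its probes. Probe 9-43 averaged 9.78 ± 0.86 in wild eyestalk and 7.49 ± 0.27 in wild ovary (SD, n = 12 each), a difference of 2.30 ± 0.23 (SE, limma adjusted p = 4.78e-10). Probes 272-305 and 577-611 were also higher, but the overlapping pair 427-461 and 446-480 was not called.

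PmSGP-I was higher by 2.55 ± 0.28 at probe 521-555, where wild eyestalk averaged 9.98 ± 1.06 and wild ovary 7.44 ± 0.21 (SD, n = 12 each). CHH1 had a smaller gap, of 1.08 ± 0.15 at probe 49-83, with means of 8.56 in wild eyestalk and 7.48 in wild ovary. For 16 of the 28 higher probes no wild ovary array passed the non-specific level. In 5 of these, CHH1 801-835, CHH2 370-404, PmSGP-I 625-659, PmSGP-II 176-209 and PmSGP-III 160-193, the eyestalk mean gave no bound above 1 either, and no fold is given. For the other 11 the eyestalk mean lay 1.05-fold to 4.10-fold above the mean non-specific level of ovary. That is a lower bound of the fold only where eyestalk also passed its own, higher level. PmSGP-I 321-355 did so on 2 of 12 arrays and PmSGP-II 25-59 on 1. The top 2 were PmSGP-III 484-519 at 4.10, which passed on 11, and PmSGP-II 498-532 at 3.22, which passed on 10. They are the pair with the identical stretch.

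**Figure D2:**
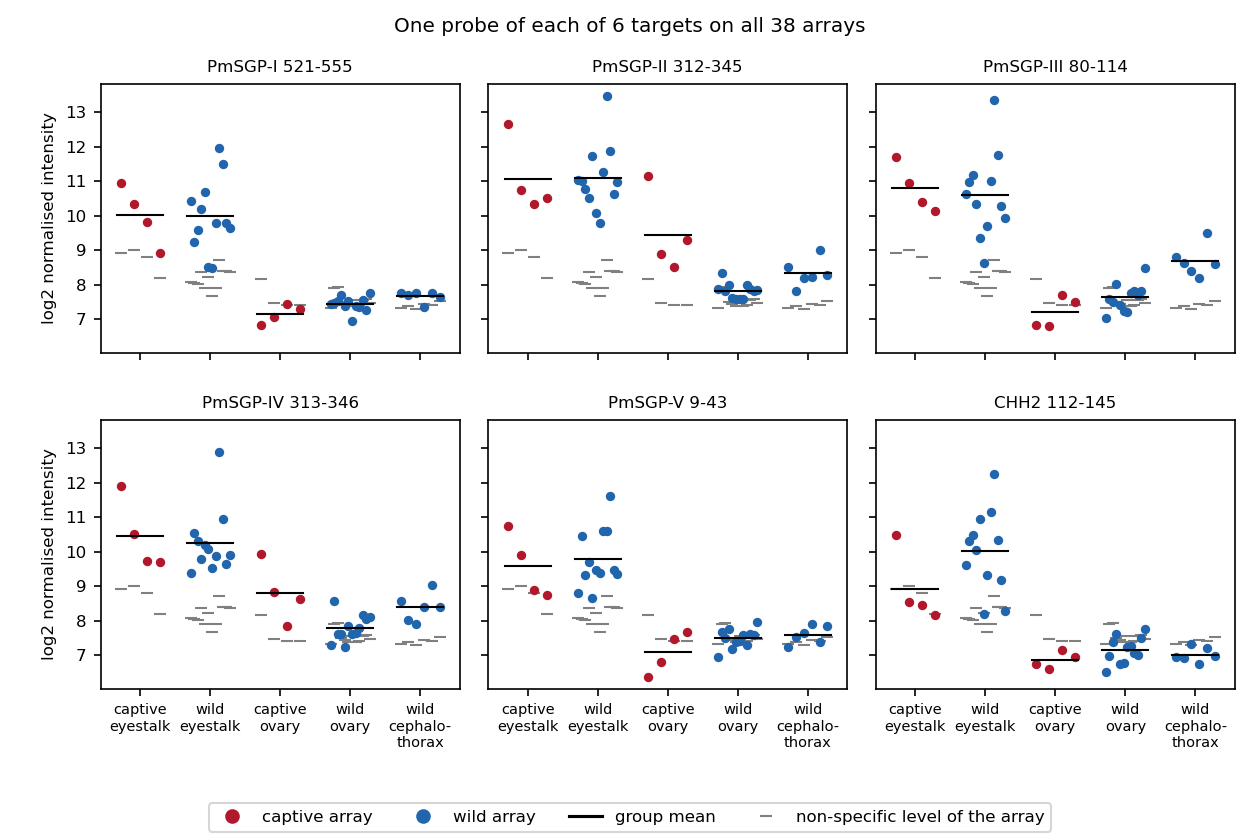
Log2 level of 1 probe of each of 6 member targets on all 38 arrays, by tissue and origin, with the group mean as a line and each array's non-specific level as a dash. Each probe is the one of its target with the highest mean in wild eyestalk, and CHH1 is not shown. The wild eyestalk arrays lie above the wild ovary arrays in every panel, but that choice of probes makes this no test. PmSGP-II 312-345 is highest on a wild eyestalk array at 24 h, at 13.47.

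Against wild cephalothorax, 30 member probes were higher in wild eyestalk and 0 were lower (limma), where 33.1% of all probes were called higher and 21% lower. The other 5 had no call and an adjusted p of 0.05 or more, and 30 members had an unadjusted p under 0.05. The median difference was 0.94 over the members and 0.13 over all probes. The 24 vertebrate-derived probes had 12 higher and 0 lower in wild eyestalk, with a median difference of 0.23. Calls on dim member probes therefore need not be specific. Of the members, 17 had no overlap between the groups, a count that was not made over all probes. Of the 28 probes higher than in ovary, 27 were also higher than in cephalothorax. PmSGP-III 484-519 was at least 4.53-fold and PmSGP-II 498-532 at least 3.56-fold higher.

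Ovary and cephalothorax differed less in the family. The 17 ovary markers had a summed linear level of 27080 to 87690 in wild cephalothorax. It was 111200 to 155600 in wild ovary and 2609 to 5080 in wild eyestalk. The part of ovary signal in the cephalothorax arrays was not tested. Of the 35 member probes, 18 passed the non-specific level on no array of wild ovary or wild cephalothorax. The 24 vertebrate-derived probes had 7 higher and 1 lower in wild ovary. Of the 35 probes 4 were higher in wild ovary and 2 lower, where 32.4% of all probes were called higher and 23.8% lower. The higher ones were CHH2 293-327 by 0.38, CHH2 370-404 by 0.45, PmSGP-V 427-461 by 0.16 and PmSGP-V 446-480 by 0.60. Of these, CHH2 293-327 passed the non-specific level on 1 of all arrays, and CHH2 370-404 and PmSGP-V 427-461 on 0. The lower ones were PmSGP-III 80-114, which averaged 7.63 ± 0.39 in wild ovary (SD, n = 12) and 8.69 ± 0.45 in wild cephalothorax (SD, n = 6), and CHH2 207-241, with a difference of -0.58. With each array scaled to 1 median instead of quantile normalisation, the split was 4 higher and 4 lower. PmSGP-V 427-461 had no call then (limma adjusted p = 0.447), and PmSGP-III 80-114 had none without normexp background correction (limma adjusted p = 0.0545). With slide as a random block, the calls were 28 higher and 1 lower for wild eyestalk against wild ovary, 27 higher and 0 lower against cephalothorax, and 2 higher and 1 lower for wild ovary against cephalothorax.

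Captive females gave the tissue difference a reading from other animals on other slides. Of the 35 probes 12 were higher in captive eyestalk than in captive ovary and 0 were lower (limma, 18 with an unadjusted p under 0.05), where 21.9% of all probes were called higher and 15.2% lower. The median difference was 0.71 over the members and 0.03 over all probes. All 12 were among the 28 that were higher in wild eyestalk, and 27 of those 28 had a positive difference in captive females. The calls fell on PmSGP-III for 4 probes, PmSGP-II for 3, PmSGP-V for 2 and PmSGP-I, CHH1 and CHH2 for 1 each. The 24 vertebrate-derived probes had 7 higher and 1 lower in captive eyestalk, with a median difference of 0.20.

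PmSGP-III 80-114 had levels of 11.70, 10.94, 10.39 and 10.15 in captive eyestalk, from preablation to elongated cortical rod, against 6.82, 6.78, 7.68 and 7.50 in captive ovary. The captive eyestalk arrays all lay more than 2 log2 units above the captive ovary arrays, and the difference was 3.60 ± 0.37 (SE, limma adjusted p = 7.64e-05). CHH2 112-145 had 10.47, 8.53, 8.46 and 8.15 in captive eyestalk, against 6.75, 6.58, 7.15 and 6.95 in captive ovary. It passed the non-specific level on 1 of 4 captive eyestalk arrays, the preablation one, and on 0 of 4 captive ovary arrays. The probe was called higher in captive eyestalk (limma adjusted p = 0.00881). Its captive eyestalk mean lay 2.45-fold above the mean non-specific level of captive ovary. That value rests on the preablation array and is no firm bound.

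PmSGP-IV had no call in captive females. Probe 313-346 had levels of 11.90, 10.50, 9.74 and 9.70 in captive eyestalk, against 9.93, 8.84, 7.85 and 8.61 in captive ovary, in stage order. The groups overlapped, since the preablation ovary array lay above the last 2 eyestalk arrays, and the difference was 1.65 ± 0.58 (SE, limma adjusted p = 0.0533). PmSGP-II 312-345 likewise had 12.65, 10.73, 10.34 and 10.51 in captive eyestalk and 11.14, 8.88, 8.50 and 9.29 in captive ovary (limma adjusted p = 0.0975). In both probes it was the captive ovary that stood higher than in wild females.

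That ovary difference was called for previtellogenic ovary. Between captive and wild previtellogenic ovary, 8 member probes were higher and 4 lower (22.9% and 11.4% of members), where 14% of all probes were called higher and 9.15% lower. The 24 vertebrate-derived probes had 3 higher and 4 lower. PmSGP-II 312-345 had 11.14 and 8.88 on the captive arrays, while the highest of the 6 wild arrays read 8.35, a difference of 2.15 ± 0.40 (SE, limma adjusted p = 0.0018). PmSGP-IV 313-346 averaged 9.38 ± 0.77 (SD, n = 2) in captive and 7.75 ± 0.43 (SD, n = 6) in wild previtellogenic ovary, a difference of 1.64 ± 0.35 (SE, limma adjusted p = 0.0041). PmSGP-V 272-305, which shares 19 of 20 bases with the PmSGP-II probe, was at least 1.86-fold higher (limma adjusted p = 0.00517).

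The other 5 higher probes differed by 0.41 to 0.53: CHH1 801-835, PmSGP-I 625-659, PmSGP-IV 385-419, PmSGP-IV 439-473 and PmSGP-II 176-209. Lower in captive ovary were PmSGP-V 9-43 by 0.82, CHH2 370-404 by 0.75, PmSGP-III 484-519 by 0.53 and PmSGP-V 577-611 by 0.45. On the 8 captive and wild previtellogenic arrays, 8 of these 12 called probes never passed the non-specific level, so no fold is given for them. Probes of PmSGP-V were thus split, with 272-305 higher and 9-43 and 577-611 lower, while both called PmSGP-II probes were higher. CHH2 112-145, which differs from PmSGP-II 312-345 at 1 aligned base, read within the wild ovary range on every captive ovary array.

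**Figure D3:**
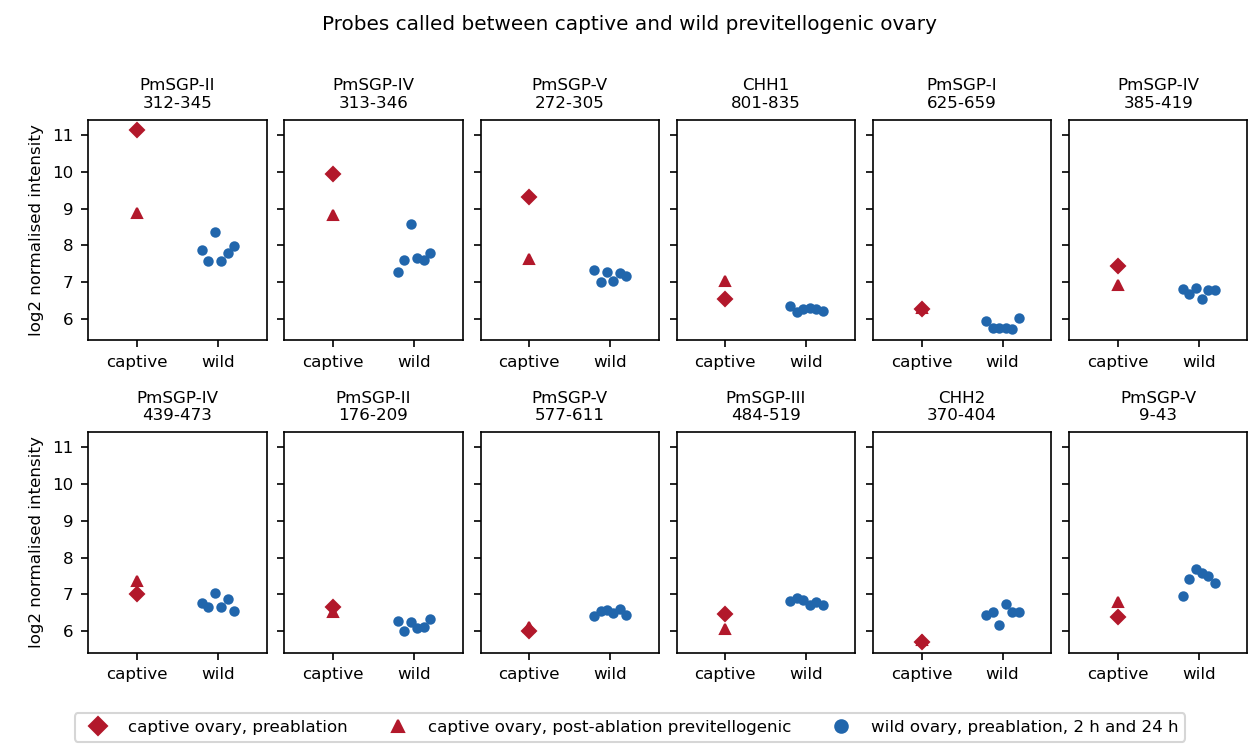
Log2 levels of the member probes called between captive and wild previtellogenic ovary, with 1 point per array. PmSGP-II 312-345 read 11.14 and 8.88 in captive ovary, above the wild arrays, and PmSGP-V 9-43 read lower in captive ovary.

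The preablation array carried much of this difference. On it 30.7% of all probes passed the non-specific level, while the rest of the captive ovary arrays had 44.4% to 46.2%. Without it the count fell to 5, and PmSGP-IV 313-346 (1.09, limma adjusted p = 0.105) and PmSGP-V 272-305 (0.45, limma adjusted p = 0.0917) had no call. PmSGP-II 312-345 kept its call, and it lay above the whole wild ovary range on 4 of 4 captive ovary arrays, while PmSGP-IV 313-346 and PmSGP-V 272-305 did so on 3. Scaling each array to 1 median gave 4 higher and 4 lower member calls, and moved the median difference of all probes to -0.21, against -0.03 under quantile normalisation. With slide as a random block the calls were 7 higher and 4 lower.

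Other neuropeptides and eyestalk markers were also called in this comparison, and pigment dispersing hormone is in both lists. Of 24 eyestalk marker probes 5 were higher and 1 lower in captive previtellogenic ovary, among them pigment dispersing hormone PDH 1 290-328 by 2.67 ± 0.44 and PDH 3 250-284 by 2.36 ± 0.40. Their summed linear level was 5159 to 9278 in captive and 3153 to 4558 in wild previtellogenic ovary. The 9 arrestin probes, which mark the photoreceptors, summed to 1126 to 1170 in captive ovary and 906 to 1271 in wild ovary, with no group standing apart. Of the 53 other eyestalk neuropeptide probes 11 were higher and 3 lower, of the 17 cephalothorax markers 7 were higher and 1 lower, and of the 17 ovary markers 0 were higher and 1 was lower. These counts stand beside 14% of all probes called higher and 9.15% lower. On the arrays compared, 33 of the 53 neuropeptide probes never passed the non-specific level. The same held for 14 of the 24 eyestalk markers and 11 of the 17 cephalothorax markers. The part of these lists in the hormone family's difference was not tested.

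In vitellogenic ovary no member was called between captive and wild females by limma, with 5 at an unadjusted p under 0.05, and 0% of all probes were called. PmSGP-II 312-345 was 1.11 ± 0.40 log2 units higher in captive vitellogenic ovary, with both captive arrays above the 6 wild ones (limma adjusted p = 0.217). In eyestalk, captive and wild females had 0 member calls in either phase (limma): in the previtellogenic phase 1 member had an unadjusted p under 0.05 and 0.67% of all probes were called, and in the vitellogenic phase 0 members and 0% of all probes. PmSGP-IV 313-346 averaged 10.46 over the captive eyestalk arrays and 10.26 over the wild ones, and PmSGP-II 312-345 averaged 11.06 and 11.10.

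Ovarian phase gave no call in wild tissues. For vitellogenic against previtellogenic wild eyestalk 0 members were called (limma, 3 at an unadjusted p under 0.05), with 0.625% of all probes called. For wild ovary it was 0 members (0 unadjusted) and 0% of all probes, and for wild cephalothorax 0 members (2 unadjusted) and 11.5% of all probes. In wild eyestalk the median member difference within a slide was -0.07, 0.04 and -1.07 on the 3 slides. The slide at -1.07 held the 24 h array with the highest levels.

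In captive ovary 2 members were higher and 1 lower in the vitellogenic phase, where 2.77% of all probes were called higher and 7.37% lower. PmSGP-V 9-43 was higher by 0.97 ± 0.26, and CHH2 370-404, which passed the non-specific level on no array, by 0.89 ± 0.26, while PmSGP-V 272-305 was lower by 1.22 ± 0.35 (limma adjusted p = 0.0306, 0.0458 and 0.0387). Without the captive ovary preablation array none of these 3 calls held: the values were 0.76, 0.85 and -0.38 (limma adjusted p = 0.148, 0.134 and 0.24). Without the elongated cortical rod array of captive ovary none held either, at 0.87, 0.55 and -1.39 (limma adjusted p = 0.188, 0.347 and 0.127). Median scaling left 1 call and moved the median difference of all probes to 0.18, against -0.01. In captive eyestalk 0 members were called (limma, 1 unadjusted) and 0% of all probes, although 29 of 35 members read lower in the vitellogenic phase. The median difference there was -0.54 over the members and -0.04 over all probes. The difference in phase response between captive and wild females, tested as an interaction, gave 0 member calls in eyestalk (0 unadjusted, 0.0446% of all probes called) and 0 in ovary (8 unadjusted, 2.28% of all probes called).

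Single stages of wild eyestalk were read by 2 pools each. PmSGP-IV 313-346 had levels of 9.39 and 9.54 before ablation, 10.55 and 9.87 at 2 h, 10.30 and 12.88 at 24 h, 9.78 and 10.94 in vitellogenic females, 10.19 and 9.65 with round cortical rods and 10.07 and 9.91 with elongated cortical rods. Both preablation pools were the lowest of the 12, and 1 pool at 24 h was far above the rest. The 24 h mean exceeded the preablation mean by 2.13 ± 0.77 (SE, limma adjusted p = 0.992, unadjusted p = 0.0254).

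CHH2 112-145 had 9.61 and 9.32 before ablation, 10.32 and 11.16 at 2 h, 10.48 and 12.26 at 24 h, 10.06 and 10.33 in vitellogenic females, 10.94 and 9.19 with round cortical rods and 8.20 and 8.27 with elongated cortical rods. Its lowest levels were those of the last stage, in both pools. PmSGP-V 9-43 had 8.79 and 9.37 before ablation, 10.45 and 10.60 at 2 h, 9.33 and 10.61 at 24 h, 9.71 and 11.60 in vitellogenic females, 8.66 and 9.47 with round cortical rods and 9.46 and 9.34 with elongated cortical rods. PmSGP-II 312-345 had 11.02 and 9.77 before ablation and 10.79 and 13.47 at 24 h, so its groups overlapped.

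**Figure D4:**
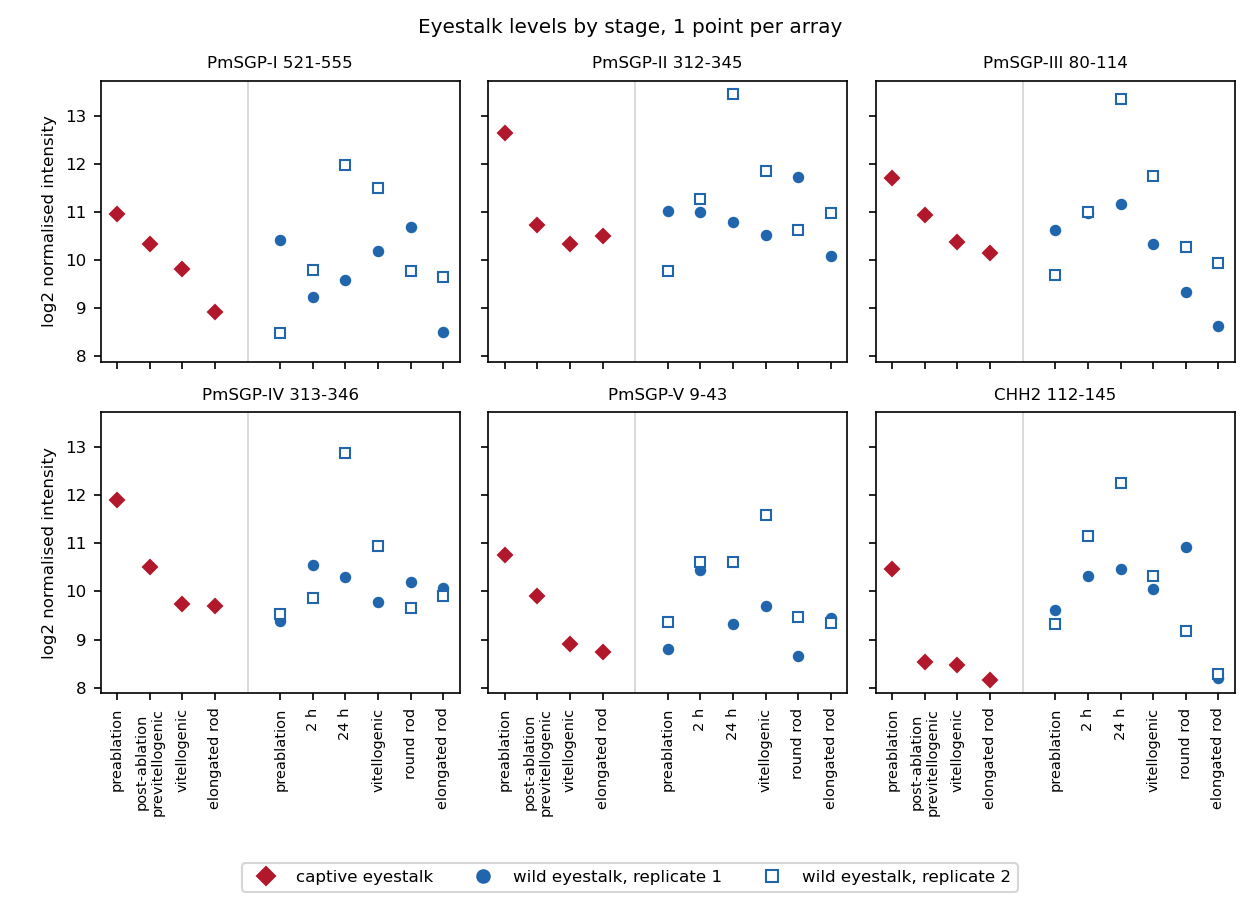
Log2 levels of member probes in captive and wild eyestalk by stage, with 1 point per pool. The second 24 h pool of wild females reads 12.88 for PmSGP-IV 313-346, and in captive females the preablation array is the highest for that probe, at 11.90.

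At 2 h after ablation 31 of 35 members read higher than before it, with a median difference of 0.48 over the members and -0.01 over all probes. None was called by limma (1 at an unadjusted p under 0.05), and 0% of all probes were called. At 24 h 30 members read higher, with medians of 0.67 and 0.02. Again none was called (3 unadjusted), and 0% of all probes were called. The second 24 h pool held the highest level of 11 of the 15 detected probes. Scaling each array to 1 median gave 1.03 in place of 2.13 for PmSGP-IV 313-346 and 0.87 in place of 1.91 for CHH2 112-145.

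That pool's 35 member probes summed to a linear level of 59240, and the next highest wild eyestalk array, the second vitellogenic pool, to 32130. The lowest, the second preablation pool, summed to 9327. These sums are of normalised levels. The second 24 h pool was dim as deposited, with a median intensity of 127.2, and its non-specific level was 8.72 after normalisation. Its deposited intensity was 1625 for PmSGP-II 312-345 and 1142 for PmSGP-IV 313-346. The second 2 h pool read 7172 and 2684 for them. The 53 other neuropeptide probes also peaked in the second 24 h pool, at 28550, against 12020 to 21210 on the other wild eyestalk arrays. The 9 arrestin probes summed to 4591 in that pool and ranged from 1464 to 30740 over the wild eyestalk arrays, highest in the second preablation pool. In captive eyestalk the member sum was 29440 before ablation and 10150 to 14310 at the later stages, and 13 of the 15 detected probes were highest on the preablation array. Arrestin was highest on that captive array too, at 23710. The high array was thus a preablation one in captive females and a 24 h one in wild females, and the part of array and pool in either was not tested.

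The 15 detected probes moved together to differing degrees over the 12 wild eyestalk arrays. Their 105 pairs had Pearson's r of -0.09 to 0.93 with a median of 0.575, and 65 pairs exceeded 0.5. The highest value, 0.932, joined PmSGP-IV 505-539 and PmSGP-I 521-555, probes without a shared run of 12 bases. Arrays share slides, pools and normalisation, so these values describe the arrays and carry no test.

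**Figure D5:**
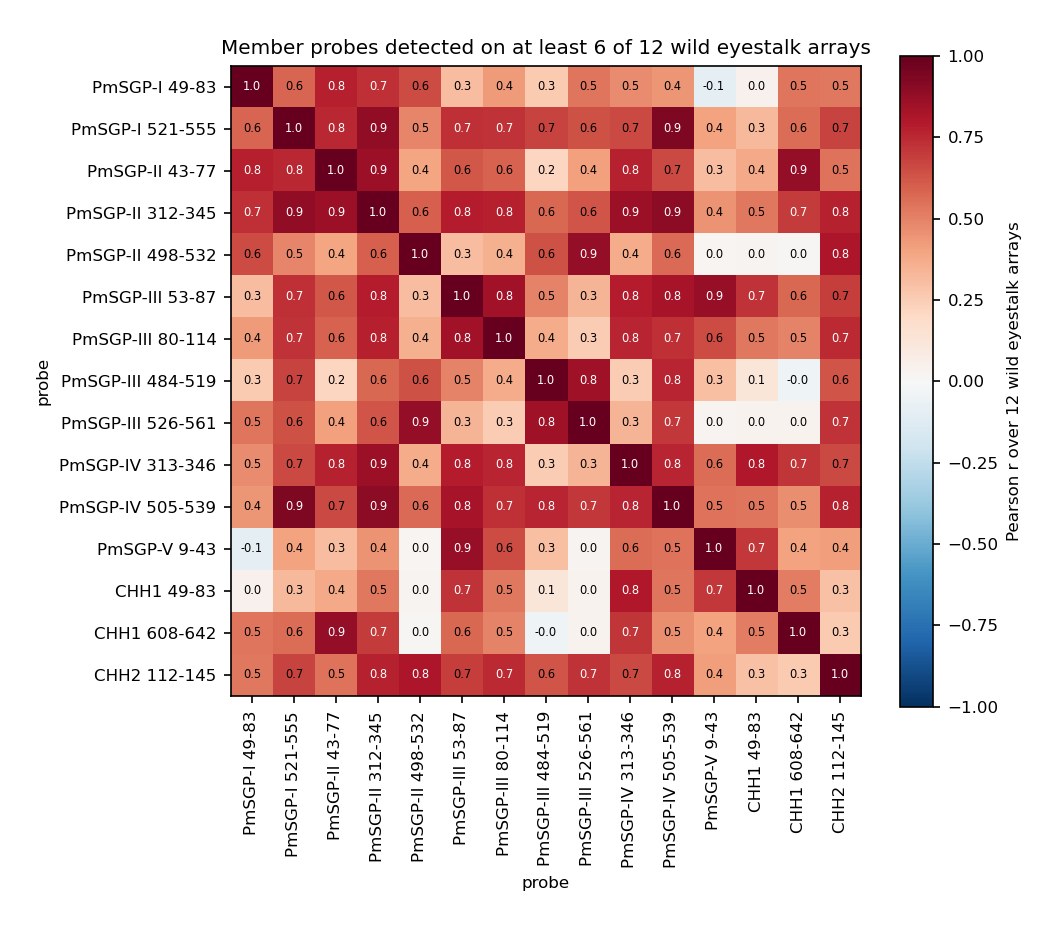
Pearson's r between the 15 detected member probes over the 12 wild eyestalk arrays, each cell a pair. The 105 pairs run from -0.09 to 0.93, and 65 lie above 0.5.

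Among named probes outside the family, likeness was measured as Pearson's r with the mean of a target's detected probes. Those probes were chosen by their detection in wild eyestalk. A value over all 38 arrays therefore carries the difference between tissues, and it is no test of a shared role. Over all 38 arrays the nearest to PmSGP-IV, CHH1 and PmSGP-II was mandibular organ inhibiting hormone 883-917, at 0.934, 0.925 and 0.874. The nearest named probe to PmSGP-III was gonad-inhibiting hormone 1670-1704 at 0.885. To PmSGP-V it was vitellogenesis inhibiting hormone 339-373 at 0.922 and to CHH2 moult-inhibiting hormone-like peptide 289-323 at 0.839. These hormones belong to the same superfamily. For every target an unnamed probe had a higher r over the 38 arrays, from 0.893 for CHH2 to 0.948 for PmSGP-IV. Over the 16 eyestalk arrays this held for all targets but PmSGP-III and PmSGP-V. For PmSGP-I the nearest named probe over the 38 arrays was a fish zona pellucida probe at 0.892, a vertebrate-derived sequence, and next Pem-SGP-C1 precursor 123-157 at 0.857. Over the 16 eyestalk arrays alone, gonad-inhibiting hormone 1670-1704 stayed nearest to PmSGP-III at 0.752 and became nearest to PmSGP-IV at 0.874, and Pem-SGP-C2 precursor 557-591 was nearest to PmSGP-I at 0.811 and to PmSGP-II at 0.753. For CHH1 and PmSGP-V the nearest there were vitellogenin 7519-7553 at 0.896 and a fish SF-1 probe at 0.768, and for CHH2 a fish cathepsin Z probe at 0.649.

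Of the 53 other neuropeptide probes of the eyestalk, 22 were higher and 5 lower in wild eyestalk than in wild ovary, where 37% of all probes were called higher and 28.6% lower. In captive eyestalk against captive ovary 10 were higher and 1 lower, where 21.9% of all probes were called higher and 15.2% lower. Whether these shares differ from that of the hormone family was not tested. Serotonin receptors, through which serotonin is known to release hyperglycemic hormone in crayfish, had 6 of 10 probes higher and 0 lower in wild eyestalk than in wild ovary, with 5-HT1 receptor 1915-1949 higher by 1.75 ± 0.25. On a wild eyestalk array 2 to 3 of these 10 probes passed the non-specific level, and 4 of the 10 passed on no wild eyestalk or wild ovary array. The receptor calls against wild ovary and those of the next list stand beside the same 37% and 28.6% of all probes. The energy metabolism list had 5 of 9 probes higher and 2 lower, with arginine kinase 361-395 higher by 2.16 ± 0.18. Against wild cephalothorax, this list had 2 higher and 4 lower in wild eyestalk, and serotonin receptors had 4 higher and 2 lower. There, 33.1% of all probes were called higher and 21% lower. A link of either list to the hormone family was not tested.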

How the data were processed

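Single-colour Cy5 arrays of amplified RNA were hybridised, per the labels' protocols. Per the file headers, the deposited files give each spot's unlogged mean and median intensity and no background column. The authors' image software is not given in the sources used here. Their value table holds the same mean intensity for 2239 probes, with equal values within 0.01, so it is unlogged and uncentred, and its column medians ran from 72.3 to 384.

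From the deposited intensity the following were computed. Mean intensity was background-corrected by normexp (offset 50), transformed to log2 and quantile-normalised over all 38 arrays (limma 3.58.1 in R 4.3.3). All 2240 probes were tested by lmFit and eBayes, p-values were adjusted over all of them after Benjamini and Hochberg, and calls needed an adjusted p under 0.05. The deposited intensities became log2 levels only in this step. Wild tissues were fitted together on 30 arrays, captive tissues on 8, origin and phase within eyestalk or ovary on 16, cephalothorax on 6 and wild eyestalk stages on 12.

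All 35 member probes were accounted for. Likeness was ranked over named probes and over arrays. Members, lists and tests were chosen with earlier results of these data known. No 2 arrays were identical (highest r 0.9922). Same-numbered wild pools had r of -0.33 to 0.66 in their deviations from stage means within ovary and -0.14 to 0.58 within eyestalk. Between ovary and eyestalk of a stage, all 6 same-numbered pairs had a positive r, of 0.0935 to 0.363, with the lowest under 0.1. The labels do not say that such pools share females, and the numbers were not treated as pairs. Fits were tested on simulated data with independent errors and no slide, stage or pool structure. That test cannot measure the effect of such structure. Alternatives were median scaling, quantile normalisation per fit, no normexp, median spot intensity, a filter on dim probes, slide and replicate blocks, the methods' t-test and leaving out each array. The number of arrays limits the precision.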

Additional observations from a re-analysis of the deposited data

Results flagged for a closer look

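Of 76 probe and group combinations tested for a sample far from the others, 8 were flagged, and chance flags about 1 in 20 such groups. In wild previtellogenic eyestalk the second 24 h pool stood apart for PmSGP-II 43-77, at 11.33 with the next array at 9.61, and for PmSGP-IV 313-346, at 12.88 with the next at 10.55. In wild vitellogenic eyestalk the second vitellogenic pool stood apart for PmSGP-III 53-87, at 11.68 with the next at 8.44, and for PmSGP-V 9-43, at 11.6 with the next at 9.71. Both pools were hybridised on slide 6. In captive eyestalk the preablation array stood apart for CHH1 608-642, at 9.34 with the next at 8.39, for PmSGP-II 43-77, at 10.61 with the next at 9.37, and for PmSGP-II 312-345, at 12.65 with the next at 10.73. In wild cephalothorax the elongated cortical rod array was the low one for PmSGP-I 521-555, at 7.36 with the next at 7.63.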

How the results depend on the processing

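No called difference of a member probe changed direction under any alternative run. Of 93 calls of a probe in a comparison, 78 held under median scaling, 90 without normexp, 93 with quantile normalisation per fit and 70 of the 78 that could be fitted with slide as a random block. With the filter on dim probes, member calls numbered 15 for wild eyestalk against ovary, 15 against cephalothorax, 2 for wild ovary against cephalothorax and 3 for captive against wild previtellogenic ovary, since fewer probes were tested. With slide as a random block, wild ovary against cephalothorax had 3. Median scaling left 1 for the captive ovary phase. The methods' t-test, unadjusted, gave 20 for wild ovary against cephalothorax, 1 for captive against wild vitellogenic eyestalk, 5 for captive against wild vitellogenic ovary, 2, 3 and 5 for the phase in wild eyestalk, captive eyestalk and cephalothorax, 1 for the phase in captive ovary and 2 at 2 h. After Benjamini-Hochberg it gave 16, 4 and 0 for wild ovary against cephalothorax, captive against wild previtellogenic ovary and the captive ovary phase. The cause of these changes was not tested.

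With the replicate block the counts were 30, 30, 6, 12, 3 and 0, as without it, and no call changed. The replicate block could not be fitted for captive tissues or the cephalothorax phase, nor a slide block for captive tissues. Leaving out each array in turn gave 29 to 30 for wild eyestalk against ovary, 28 to 31 against cephalothorax, 3 to 7 for wild ovary against cephalothorax, 10 to 14 for captive tissues, 5 to 13 for captive against wild previtellogenic ovary (5 without captive preablation), 0 to 1 for vitellogenic ovary, 0 to 1 for previtellogenic eyestalk (1 without the second wild 24 h pool), 0 to 6 for the captive ovary phase, 0 to 1 for 24 h (1 without the first 24 h pool) and 0 to 5 for the ovary interaction (5 without captive post-ablation previtellogenic). The lowest 3 for wild ovary against cephalothorax came without the 2 h cephalothorax array. Signal near the non-specific level limits most probes, and 2 arrays a phase limit captive results.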
